A study of Mus musculus with 5 samples.

Results

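Tbx6-positive T-low cells were examined in single-cell RNA sequencing (scRNAseq) libraries of mouse epiblast stem cells (EpiSCs) differentiated towards mesoderm. They were selected on 2 genes only, as cells with at least 2 UMIs (unique molecular identifiers, each counted as 1 captured transcript) of Tbx6 and at most 3 UMIs of T/Bra. Of the 8952 cells kept in the 4 libraries with different doses of exogenous FGF2, 808 (9.03%) met this rule. The whole series held 15375 deposited barcodes, of which 10653 were kept, namely those in which 2500 or more genes were detected and mitochondrial genes took up at most 10% of the UMIs.

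In the gastrulating embryo, mesoderm leaves the primitive streak and the tail-end progenitor zone in a state that expresses the T-box factor T/Bra, and cells that enter the paraxial lineage then lose T/Bra while they express the related factor Tbx6. Tbx6-expressing presomitic mesoderm is known for Delta-Notch signaling and for the cyclic repressor Hes7, which together pace the formation of somites. Dll1 and Dll3 are Delta-type ligands, Lfng modifies Notch receptors, Nrarp is a feedback inhibitor of Notch, and Msgn1, Mesp2 and Ripply2 mark successive steps on the way to a somite.

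EpiSCs are the pluripotent cells of the implanted mouse embryo, grown as a line. The line used was 1 wild-type line of 129 background, derived from the epiblast of an embryo and kept in ActivinA, FGF2 and the Wnt inhibitor XAV939 before differentiation. All libraries came from cells differentiated for 3 days in N2B27 medium with 1 µM of the Wnt agonist Chi (CHIR99201) and 8 ng/ml BMP4, with no FGF2 or with 0.75, 3 or 12 ng/ml FGF2. Another library received 30 nM of the FGFR inhibitor AZD4547 (FGFRi), and no FGF2 dose is stated for it. There was 1 library per condition, so differences between doses are given as values with counting intervals and without a test.

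Values that follow in groups of 4 are for 0, 0.75, 3 and 12 ng/ml FGF2, in this order. Kept cells numbered 1696, 2725, 2125 and 2406 and held 56812075, 81538748, 64607114 and 70776993 UMIs. The Tbx6-positive T-low cells among them numbered 40, 118, 200 and 450, with 1281525, 3325435, 5668630 and 12058218 UMIs in sum. The library without FGF2 thus rested on the fewest cells and had the widest intervals. No barcode of these cells was shared with another FGF2 library, and 4 of 8948 distinct kept barcodes were found in more than 1 library. Doublets were not removed, since no doublet call was part of the deposited files.

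The share of kept cells that met the rule was 2.36% (exact 95% binomial interval 1.69 to 3.20) without FGF2, 4.33% (3.60 to 5.16) at 0.75 ng/ml, 9.41% (8.20 to 10.7) at 3 ng/ml and 18.7% (17.2 to 20.3) at 12 ng/ml. The 4 intervals did not overlap. Of all Tbx6-positive cells, 54.8, 55.9, 44.7 and 54.7% were T-low, while the share of T-positive cells among all other kept cells was higher at each higher dose. In the FGFRi library, 0 of 1701 kept cells met the rule, which allows a share of up to 0.176% (3 counts of 1701; the exact 95% binomial interval reaches 0.217%). All intervals and limits cover counting error only, and with 1 library per dose the spread between cultures is unknown. When cells were both thinned to 10000 UMIs and selected by other thresholds, at least 1 Tbx6 and at most 1 T UMI, the shares were 2.92, 6.32, 11.5 and 19.8%, again highest at 12 ng/ml. Of the cells so selected, 26 of 49, 78 of 171, 141 of 244 and 320 of 474 were among the 808.

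**Figure D1:**
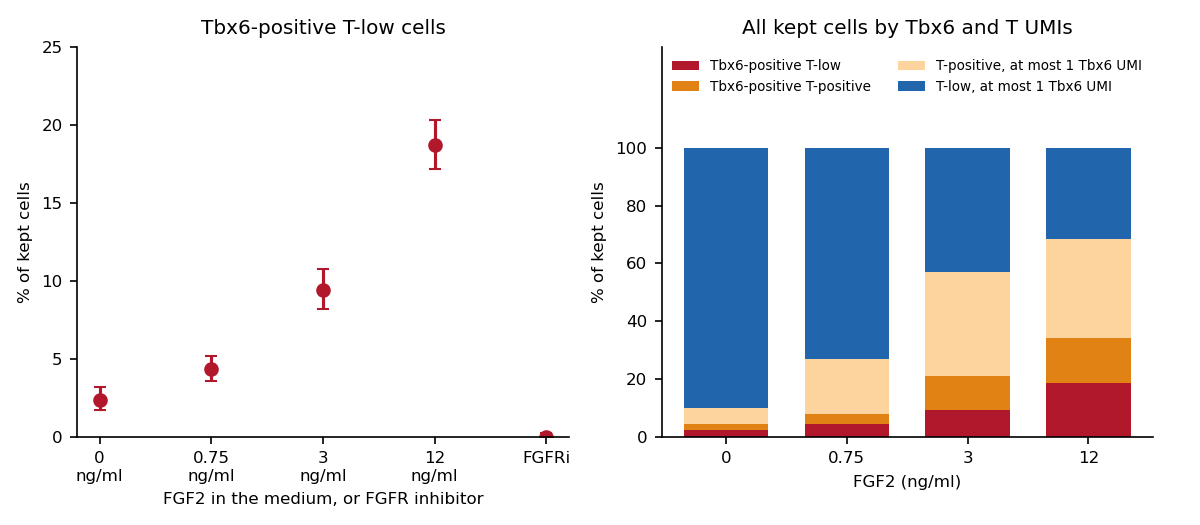
Share of kept cells that were Tbx6-positive and T-low (left; % of kept cells, points with exact 95% binomial intervals, 4 FGF2 doses and the FGFRi library) and the division of all kept cells into 4 classes by Tbx6 and T UMIs (right; stacked % of kept cells by FGF2 dose). The share of Tbx6-positive T-low cells was 2.36% without FGF2 and 18.7% at 12 ng/ml, and 0 of 1701 cells were found with the FGFRi.

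As the rule used Tbx6 and T, their levels are a description. Given as CPM, the UMIs of a gene as counts per 1000000 UMIs summed over the cells of 1 library, Tbx6 was at 111, 125, 134 and 140.5 CPM in the Tbx6-positive T-low cells and T at 54.6, 56.2, 57.9 and 57.2 CPM. The cells were close to the limits of the rule, as 262 of 808 had exactly 2 Tbx6 UMIs and 194 had exactly 3 T UMIs, while 143 had no T UMI. The highest Tbx6 count was 15 UMIs. Just outside the rule lay 452 T-low cells with 1 Tbx6 UMI and 160 Tbx6-positive cells with 4 T UMIs.

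Depth differed little from that of other T-low cells. The median number of UMIs per cell was 31482.5, 26341.5, 26537.5 and 25323.5 in the Tbx6-positive T-low cells and 29140, 26585.5, 26339 and 25700 in T-low cells with at most 1 Tbx6 UMI. Tbx6-positive T-positive cells (at least 4 T UMIs) were deeper, with medians of 38873, 31529, 33304 and 30311.5. The median mitochondrial share was 4.56, 4.15, 4.35 and 4.37% in the Tbx6-positive T-low cells and 4.12, 3.95, 4.17 and 4.10% in all other kept cells. With at most 5% mitochondrial UMIs in every cell, 3138 genes were called in the first comparison below, of which 3002 were among the 3465 called with all kept cells.

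The cells were first compared with all other kept cells of the same library. Of the genes tested, 9 of 13 in the Notch pathway and 9 of 11 listed for presomitic mesoderm and the segmentation clock were called higher. The higher genes included the protocadherin gene Pcdh19 and the forkhead genes Foxc1 and Foxf1. Keratin genes, claudin genes, Cdh1 and other epithelial genes were lower. UMIs were summed per library and class and tested with edgeR's quasi-likelihood test with library as a block, over 8 sums from 4 libraries. Of 9498 genes tested, 1585 were called higher (16.7%) and 1880 lower (19.8%) at an adjusted p (Benjamini-Hochberg) of at most 0.05, and 121 (1.27%) and 478 (5.03%) of these differed by at least 2-fold. The 16.7 and 19.8% are the background for the counts in each gene list of this comparison. The 4 libraries differed in FGF2 dose and came with no label of separate cultures, so that the p-values measure how constant a difference was over the 4 doses. The number of calls was 3465 with all libraries, 2021 without the 0.75 ng/ml library and 2203 without the 3 ng/ml library.

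What the cells were compared with changed with dose. Of all other kept cells, 7.91, 23.7, 52.4 and 61.2% had 4 or more T UMIs. Levels are therefore given per library on both sides, ± gives the standard error (SE) of a log2 fold change, and gene positions are those of GRCm38. As sums over cells, they cannot tell fewer cells with a transcript from less of it per cell.

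Pcdh19, a cell adhesion protein of the protocadherin family (chrX:133582860-133688987), had the largest fold of the higher genes named by the rule (called, at least 20 CPM on the higher side, all 4 libraries in agreement, no predicted, Rik or mitochondrial gene). It was at 46.8, 77.6, 58.6 and 56.5 CPM in the Tbx6-positive T-low cells and at 1.94, 1.84, 3.77 and 8.89 CPM in all other kept cells, ratios of 24.1, 42.1, 15.5 and 6.35. The same direction in every library was a condition of the rule. The groups did not overlap, with a log2 fold change of 3.95 ± 0.40 (SE, edgeR adjusted p = 0.000267). The ratio was lowest at 12 ng/ml, where the level in the other cells was highest.

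The Delta ligand gene Dll1 (chr17:15367354-15376872) was at 103, 160.3, 152 and 156 CPM against 6.64, 14.1, 36.8 and 49.1 CPM, a log2 fold change of 2.60 ± 0.34 (SE, edgeR adjusted p = 0.000968). Dll3 (chr7:28293553-28302238), which codes for a divergent Delta protein that inhibits Notch within the cell, was at 101, 91.4, 101 and 107 CPM against 5.53, 11.0, 28.3 and 42.0 CPM, a log2 fold change of 2.34 ± 0.38 (SE, edgeR adjusted p = 0.00246). Both genes were at least 2-fold higher in each library, and their ratios became smaller with dose as the level in the other cells increased.

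The clock repressor Hes7 (chr11:69120404-69124055) was at 183, 183, 155 and 157 CPM in the Tbx6-positive T-low cells and at 25.8, 50.6, 86.7 and 91.2 CPM in the other cells, a log2 fold change of 1.46 ± 0.29 (SE, edgeR adjusted p = 0.00613), and it lost the call without the 0.75 ng/ml library. In every library the level was higher in the selected cells, without overlap between the groups, and in the other cells it was lowest without FGF2. Nrarp was at 102, 95.3, 106 and 101 CPM against 13.0, 19.0, 33.4 and 44.9 CPM, with a log2 fold change of 1.89 ± 0.24 (SE, edgeR adjusted p = 0.000787). Its 4 values in the Tbx6-positive T-low cells lay close together and above all values of the other cells. Cited1, a transcriptional co-regulator, was at 373, 377, 423 and 474 CPM against 51.5, 72.4, 129.9 and 173 CPM, a log2 fold change of 2.05 ± 0.20 (SE, edgeR adjusted p = 0.000220).

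**Figure D2:**
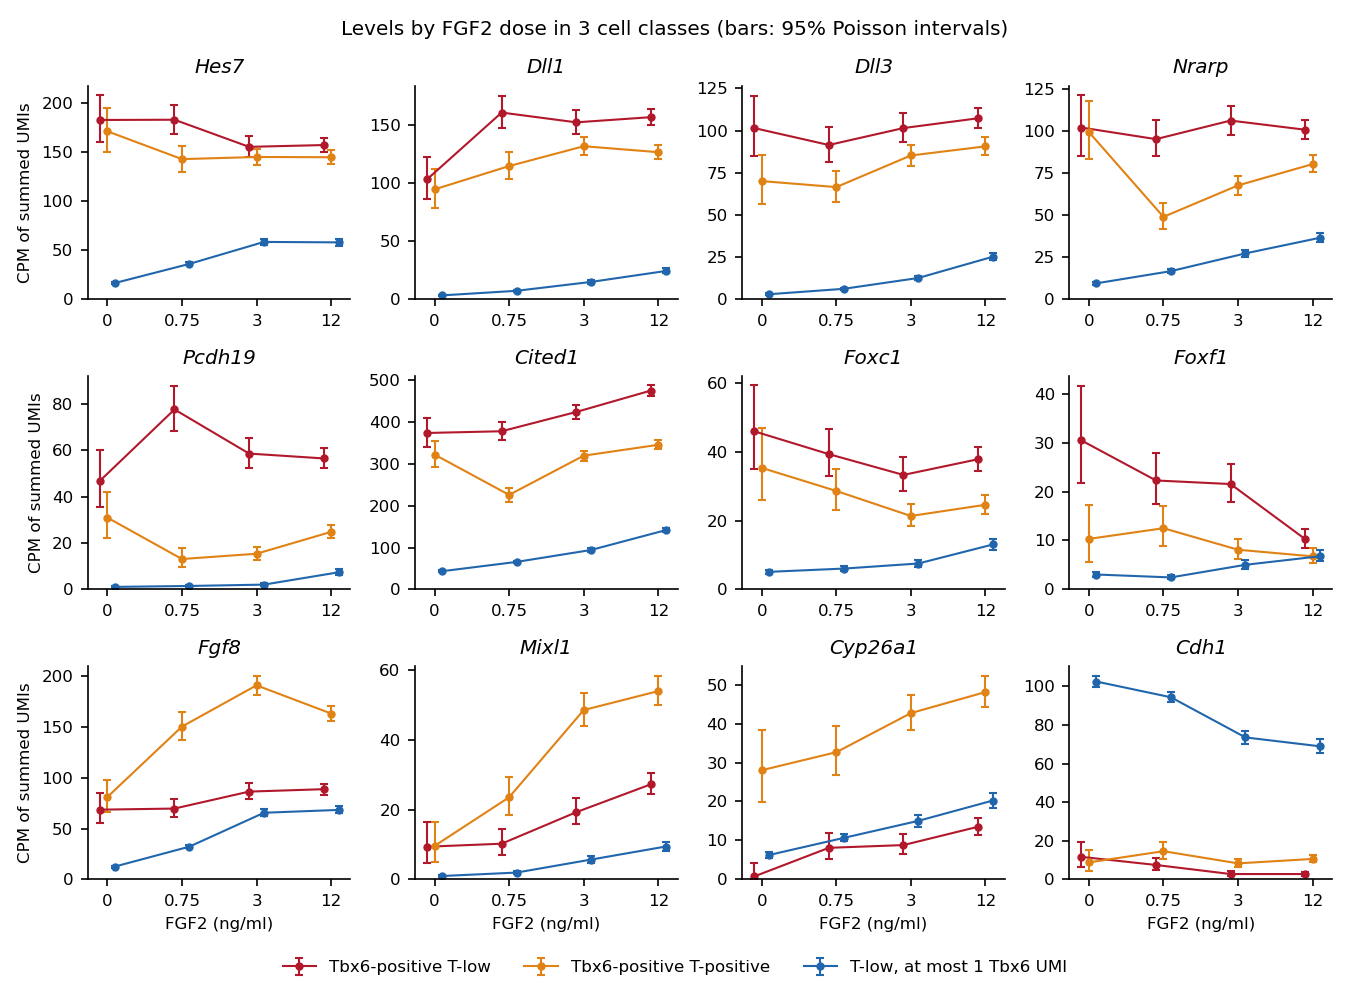
Levels of 12 genes by FGF2 dose in Tbx6-positive T-low cells (red), Tbx6-positive T-positive cells (orange) and T-low cells with at most 1 Tbx6 UMI (blue), in CPM of UMIs summed over the cells of 1 library, with exact 95% Poisson intervals. Pcdh19 lay between 46.8 and 77.6 CPM in the Tbx6-positive T-low cells at all doses, and Fgf8, Mixl1 and Cyp26a1 were highest in the T-positive cells at 0.75, 3 and 12 ng/ml.

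Of the 16 genes listed for presomitic mesoderm and the segmentation clock, 11 reached the minimum of 5 CPM on average to be tested. 9 of them were higher, 1 was lower (Cyp26a1, which degrades retinoic acid) and 1 was not called (the Wnt antagonist Dkk1), with a median log2 fold change of 1.62 against 0.01 over all genes tested. Besides the genes above, Lfng (log2 fold change 1.62 ± 0.19), Notch1 (0.80 ± 0.07) and the Wnt agonist Rspo3 (0.76 ± 0.21) were called higher, the last with a loss of the call without the 0.75 ng/ml library. Cyp26a1 was at 0.780, 8.12, 8.82 and 13.5 CPM against 10.2, 21.2, 38.5 and 42.8 CPM, a log2 fold change of -1.80 ± 0.15 (SE, edgeR adjusted p = 0.000101).

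The remaining 5 genes of this list were too low to be tested. Msgn1, a transcription factor of early presomitic mesoderm and a known partner of Tbx6, was at 0, 4.21, 3.35 and 4.81 CPM in the Tbx6-positive T-low cells and at 0.342, 0.358, 1.36 and 2.21 CPM in the other cells. Mesp2, which sets the border of the next somite, was at 0, 0.902, 0.176 and 0.498 CPM, and Ripply2, which ends Tbx6 protein at this border, at 0, 0.301, 0.176 and 0.498 CPM. Ripply1 had no UMI in any of the 808 cells, and Pcdh8 was at 0.780, 0.301, 0 and 0.166 CPM. Hes7, Dll1 and Dll3 were thus called higher than in the other cells, while Msgn1 and the border genes Mesp2 and Ripply2 were near 0, and the cells are therefore named here by the selection rule rather than as presomitic mesoderm.

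Among 17 listed Notch pathway genes, 13 were tested, of which 9 were higher and 1 lower, with a median log2 fold change of 0.80 against 0.01 over all genes. The effector genes Hes5 (log2 fold change 1.17 ± 0.19) and Hey1 (0.74 ± 0.16) were called higher, as was the receptor gene Notch3 (0.47 ± 0.13). Hey1 lost the call without the 3 ng/ml library and Notch3 without that or the 0.75 ng/ml library and after thinning. Hes1, another Notch effector, was called lower at -0.32 ± 0.06 (SE, edgeR adjusted p = 0.00528), a call lost after thinning to 10000 UMIs. Hes5 was at 10.9, 15.9, 17.1 and 18.2 CPM against 2.76, 4.76, 8.31 and 10.6 CPM, with no overlap between the groups.

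The promoters of the Notch target genes were searched for the core letters bound by RBPJ, the DNA-binding partner of the Notch receptors, since Hes7, Hes5 and Lfng were all higher in these cells. GTGGGAA, on either strand in the 250 bases before the RefSeq start, occurred in 1779 of 32851 promoter windows (5.42%), in those of 1669 of 27025 genes (6.18%) and in those of 4 of the 13 Notch pathway genes with a promoter entry, namely Hes5, Hes7, Hey2 and Lfng. Of 15 presomitic genes with an entry, Hes7, Lfng and Msgn1 held it. The stretches of 100 bases around the match nearest the start are shown 5′ to 3′ on the gene's strand, with the match in capitals (GRCm38.p6, all on the plus strand, at chr11:69120226-69120325, chr4:154960793-154960892 and chr5:140607185-140607284). A match describes the sequence and was not tested as a site.
Hes7: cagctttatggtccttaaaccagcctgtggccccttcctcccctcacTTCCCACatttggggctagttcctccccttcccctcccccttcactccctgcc
Hes5: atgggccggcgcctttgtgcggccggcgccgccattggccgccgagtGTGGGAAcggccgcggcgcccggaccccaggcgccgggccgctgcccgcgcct
Lfng: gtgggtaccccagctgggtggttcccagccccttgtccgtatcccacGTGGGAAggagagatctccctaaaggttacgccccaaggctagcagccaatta

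The match lay 180 bases before the start in Hes7, where it reads as the reverse complement, 83 bases before it in Hes5 and 109 bases before it in Lfng. Hes5 had a second match 226 bases before the start, outside the stretch shown. No match was present in the windows of Dll1, Dll3, Nrarp, Pcdh19, Notch1 or Cited1, which says only that these letters are not in those 250 bases. TCACACC, the core letters of a T-box site, were present in the windows of Ripply1 and Ripply2 and in those of no other listed presomitic or Notch gene, against 3.84% of all genes and 3.33% of all windows. CTTTGAT, the core letters of a TCF/LEF site, occurred in the window of Msgn1 alone among these genes, against 3.72% of all genes and 3.21% of all windows.

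Genes listed for somites, a later step of paraxial mesoderm, went both ways or were near 0. Of 11 listed, 4 were tested, 2 called higher and 2 lower, against 16.7 and 19.8% of all genes. Foxc1, a forkhead factor of paraxial mesoderm, was at 46.0, 39.4, 33.3 and 37.9 CPM against 6.03, 7.22, 9.15 and 13.0 CPM, a log2 fold change of 2.05 ± 0.20 (SE, edgeR adjusted p = 0.000206) with all libraries in the same direction. Aldh1a2, which makes retinoic acid, was at 0, 2.71, 12.5 and 28.1 CPM against 2.29, 1.21, 3.00 and 5.82 CPM and called higher at 1.89 ± 0.32 (SE, edgeR adjusted p = 0.00300). It had no UMI in the 40 cells without FGF2, was higher in 3 of 4 libraries and lost the call in DESeq2.

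Pax3, a dermomyotome and neural crest factor, was called lower at -2.66 ± 0.29 (SE, edgeR adjusted p = 0.000366), and the activin antagonist Fst at -1.62 ± 0.18 (SE, edgeR adjusted p = 0.000448). Foxc2, below the minimum in this comparison, was at 12.5, 9.32, 8.29 and 6.39 CPM against 0.738, 0.460, 0.764 and 1.07 CPM. Meox1 (0, 0.301, 0.176 and 0.912 CPM), Tcf15 (0, 2.41, 0.882 and 1.08 CPM) and Uncx (0.780, 0, 0 and 0.0829 CPM) define formed somites and were near 0, and Meox2, Pax1 and Tbx18 had no UMI in the selected cells.

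Of the genes listed for lateral plate and blood-forming mesoderm, some were higher and others lower. Foxf1, a forkhead factor of lateral and splanchnic mesoderm, was at 30.4, 22.3, 21.5 and 10.3 CPM against 3.28, 3.77, 4.68 and 4.62 CPM, a log2 fold change of 2.14 ± 0.29 (SE, edgeR adjusted p = 0.00102). Osr1 was at 5.46, 7.52, 7.41 and 8.71 CPM against 0.738, 0.921, 1.51 and 2.69 CPM and too low to be tested here. Isl1, a factor of lateral and cardiac mesoderm, was also too low, at 5.46, 5.41, 1.41 and 1.08 CPM against 0.594, 0.933, 1.46 and 1.48 CPM, higher in the selected cells at 0 and 0.75 ng/ml and lower at 3 and 12 ng/ml, with 7, 18, 8 and 13 UMIs. Of the other 8 lateral plate and intermediate mesoderm genes, none reached the minimum, and Pax8 had no UMI. As means over the 4 libraries, Gata6 was at 0.495 CPM against 3.34 CPM in the other cells. Prrx1 was at 0.724 against 2.90 CPM and Pax2 at 1.09 against 2.71 CPM, so that these 3 were lower in the selected cells. Gata4 was at 0.192 against 0.187 CPM.

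Lmo2, a transcriptional adaptor needed for blood formation, was at 61.6, 68.9, 49.0 and 53.5 CPM against 5.37, 9.68, 16.7 and 24.9 CPM, ratios of 11.5, 7.11, 2.94 and 2.15, and it was called higher (edgeR adjusted p = 0.00306). Runx1, a factor of blood stem cell formation, was called lower at -3.45 ± 0.30 (SE, edgeR adjusted p = 0.000119). The defining blood and endothelial genes Tal1, Kdr, Gata1 and Cdh5 were at or near 0, with Gata1 and Cdh5 at 0 UMIs. Too low to be tested here, Gata2 had a mean over the libraries of 1.26 CPM against 5.25 CPM in the other cells. Flt1 was at 0.537 against 8.91 CPM, also lower, while Etv2 (0.933 against 0.724 CPM) and Tek (0.117 against 0.0515 CPM) were higher. Of 9 cardiac and pharyngeal genes, Smarcd3 alone was tested and was higher at 1.65 ± 0.20 on the log2 scale, while Nkx2-5 was at 0, 0, 0 and 0.166 CPM and Myl7 and Tbx5 had no UMI.

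Hand1, a factor of extraembryonic and lateral mesoderm, did not pass the test. It was at 51.5, 58.0, 57.7 and 32.8 CPM in the Tbx6-positive T-low cells and at 86.5, 45.4, 31.9 and 32.7 CPM in the other cells (log2 fold change 0.20 ± 0.20 SE, edgeR adjusted p = 0.467), and lower in the selected cells without FGF2 only. Of 10 listed mesenchyme and extraembryonic mesoderm genes, 6 were tested, 4 were lower and none higher, with a median log2 fold change of -2.02. The smooth muscle gene Tagln showed the largest difference of the list, at 0, 1.80, 1.59 and 4.15 CPM against 489, 109, 24.9 and 49.7 CPM and a log2 fold change of -4.76 ± 0.42 (SE, edgeR adjusted p = 0.000136). Acta2, another smooth muscle gene, was not called (0.03 ± 0.43 SE, edgeR adjusted p = 0.968).

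**Figure D3:**
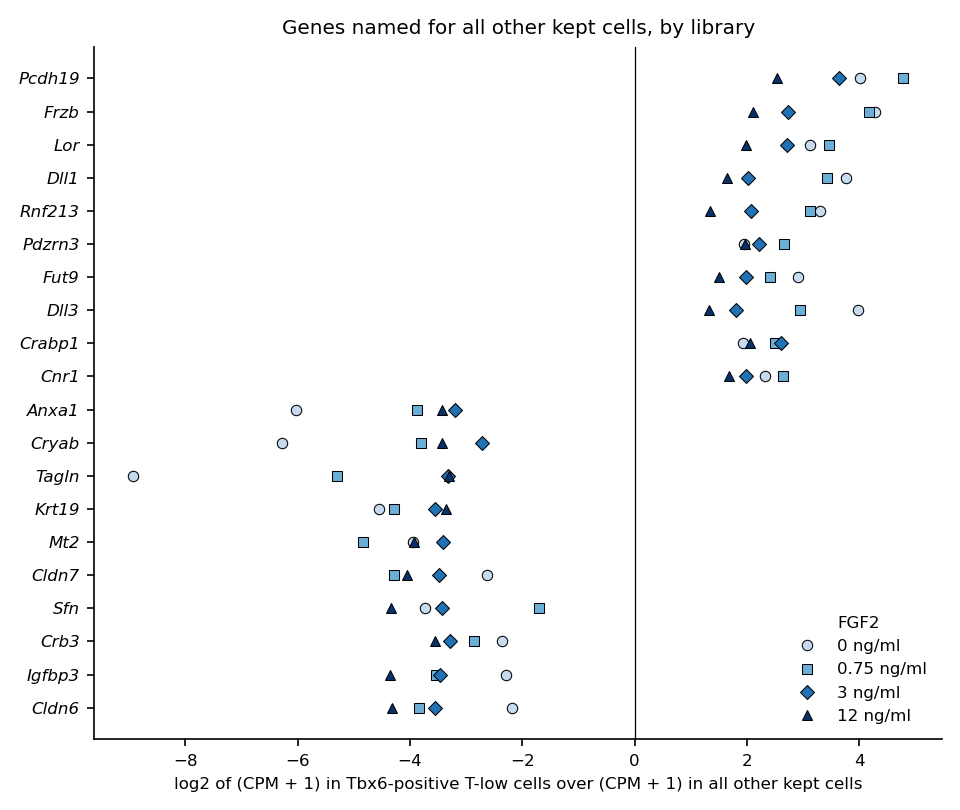
Ratio of the level in Tbx6-positive T-low cells to that in all other kept cells for the 10 genes with the largest fold in each direction, as log2 of (CPM + 1) over (CPM + 1), 1 symbol per FGF2 library. The choice of the 20 genes required all 4 libraries to lie on the same side of 0, and Pcdh19 is the highest of them in the fit.

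Epithelial genes were lower throughout. Of 8 epithelial junction genes, 7 were tested and all 7 were lower, with a median log2 fold change of -3.75, and of 12 surface and extraembryonic ectoderm genes, 8 were tested and all 8 were lower, with a median of -3.49. Cdh1, the epithelial cadherin, was at 11.7, 7.52, 2.82 and 2.82 CPM against 95.5, 77.4, 49.4 and 47.2 CPM (log2 fold change -3.75 ± 0.15 SE, edgeR adjusted p = 8.63e-06). The keratin gene Krt18 was at 52.3, 65.9, 33.3 and 24.2 CPM against 1105, 686, 343 and 363 CPM (log2 fold change -3.71 ± 0.15 SE, edgeR adjusted p = 8.63e-06). Summed over the 12 ectoderm genes, the level was 172, 139.8, 83.3 and 66.9 CPM against 2236, 1578, 845 and 865 CPM, with Krt18 as the most abundant in the selected cells and Krt5 at 0 UMIs.

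Epcam, an epithelial adhesion gene, did not reach 0, at 65.5, 20.4, 35.5 and 30.4 CPM. Of its 719 UMIs in the selected cells, 444 came from 31 cells with at least 5 UMIs each, and without FGF2 2 cells held 74 of 84. The summed level of the 8 junction genes was 135, 45.4, 53.6 and 41.3 CPM against 700.5, 695, 488 and 480.1 CPM. Leaving out the 31 cells changed the number of called genes from 3465 to 3599, of which 3363 were shared.

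The 10 called genes with the largest fold in each direction were chosen to have at least 20 CPM in the mean of the higher side and the same direction in all 4 libraries. The higher genes beside Pcdh19, Dll1 and Dll3 were Frzb, a secreted Wnt antagonist (log2 fold change 3.25), Lor, a cornified envelope protein gene (2.90), the ubiquitin ligase genes Rnf213 (2.38) and Pdzrn3 (2.36), Fut9, a fucosyltransferase (2.34), Crabp1, which binds retinoic acid (2.30), and the cannabinoid receptor gene Cnr1 (2.30). Frzb was at 94.4, 110.4, 95.1 and 109.6 CPM against 3.91, 5.18, 13.5 and 24.7 CPM, and Crabp1 at 281, 353, 292 and 253 CPM against 72.8, 61.5, 47.0 and 59.8 CPM, without overlap between the groups for either gene.

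The lower genes beside Tagln were Anxa1, a membrane-binding annexin (-5.16), the small heat shock protein gene Cryab (-4.82), the keratin gene Krt19 (-4.43), the metallothionein gene Mt2 (-4.24), the claudin genes Cldn7 (-4.23) and Cldn6 (-3.85), Sfn, an epithelial 14-3-3 protein gene (-4.16), the polarity gene Crb3 (-4.10), and Igfbp3, which binds insulin-like growth factors (-4.10). Anxa1 was at 0, 0.301, 0.176 and 0.829 CPM against 64.2, 18.0, 9.79 and 18.6 CPM. In the other cells, Anxa1 was highest without FGF2, whereas Igfbp3 was lowest there, at 22.9, 55.6, 95.7 and 120.0 CPM.

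Genes of the mesenchymal state did not move together. Of 10 genes listed for the mesenchymal transition, 7 were tested, 4 were higher (the transcriptional repressors Zeb1 and Zeb2, the neural cadherin Cdh2 and the receptor Pdgfra) and 1 was lower (Vim, an intermediate filament gene), against 16.7 and 19.8% of all genes. Pdgfra was at 25.8, 29.8, 38.1 and 38.5 CPM against 2.92, 3.99, 9.84 and 13.9 CPM, a log2 fold change of 2.10 ± 0.25 (SE, edgeR adjusted p = 0.000568), and Cdh2 at 175, 177, 179.6 and 159.9 CPM against 54.5, 67.3, 107 and 115 CPM (1.02 ± 0.17 SE, edgeR adjusted p = 0.00312). Vim was lower at -0.80 ± 0.13 (SE, edgeR adjusted p = 0.00248), and Fn1 and Twist1 were not called (0.13 and -0.52).

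Streak genes were mostly not called against all other cells, a part of which was itself T-positive. Of 13 primitive streak and nascent mesoderm genes, 10 were tested, 2 were higher and 2 lower, shares near the 16.7 and 19.8% of all genes tested. Snai1, a repressor of epithelial genes, was higher at 1.87 ± 0.22 (SE, edgeR adjusted p = 0.000526), and Mesp1, a factor of early mesoderm, at 1.15 ± 0.24 (SE, edgeR adjusted p = 0.00781). Wnt3 and Lefty2 were lower (-2.28 and -2.20). Mesp1 and Lefty2 lost the call without the library block, and Mesp1 also with members restricted to no T UMI. Mixl1 and Fgf8 were not called (0.04 ± 0.22 and -0.40 ± 0.32).

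Of 12 caudal epiblast and neuromesodermal precursor genes, 8 were tested and 3 were lower (19.8% of all genes), namely Nkx1-2 (-2.39 ± 0.20), Sox2 (-2.04 ± 0.21) and Epha5 (-1.29 ± 0.17). Cdx2, the caudal homeobox gene, was at 211, 179.5, 184 and 149 CPM against 107, 189, 222 and 192 CPM and was not called (0.01 ± 0.18 SE, edgeR adjusted p = 0.990). All 4 epiblast genes tested of 9 were called lower, against 19.8% of all genes tested, among them Pou5f1 at 0, 1.20, 1.23 and 3.40 CPM against 3.84, 7.30, 11.6 and 13.0 CPM. The call of Dnmt3b, a DNA methyltransferase gene (-0.33), was lost without the 0.75 or the 3 ng/ml library, after thinning and between 20000 and 50000 UMIs. Of the neurectoderm list, Irx3 and Nes were tested and lower, and Sox1 and Pax6 were below 1 CPM in every library. No primordial germ cell gene was tested, and of the endoderm genes Hhex was tested and not called (0.50). Of 10 other T-box family genes, Mga alone was tested, with no call (0.05).

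For signaling genes, FGF ligands were considered first, as the libraries differed in exogenous FGF2. Of 7 listed ligand genes, 5 were tested, and Fgf3 (1.44 ± 0.35) and Fgf15 (1.01 ± 0.31) were called higher (16.7% of all genes), both without the call when the 0.75 ng/ml library was left out, and Fgf15 also without the 3 ng/ml library. Fgfr1, an FGF receptor gene, was at 62.4, 59.2, 67.2 and 70.2 CPM against 64.7, 60.3, 61.4 and 72.7 CPM, a log2 fold change of 0.00 ± 0.06 (SE, edgeR adjusted p = 0.997). Fgfr2 was lower at -1.37 ± 0.27.

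Of 12 targets and feedback inhibitors of the ERK pathway, 3 were called higher and 2 lower, against 16.7 and 19.8% of all genes tested. Etv1 (0.92 ± 0.22), Etv5 (0.35 ± 0.12) and Spred2 (0.19 ± 0.06) were higher, with no call for any of them when the 0.75 ng/ml library was left out, nor for Etv1 and Spred2 after thinning or for Etv5 and Spred2 between 20000 and 50000 UMIs or without the 3 ng/ml library, and the phosphatase gene Dusp4 (-1.07 ± 0.12) and the inhibitor gene Spry1 (-1.79 ± 0.20) were lower. Spry4, a feedback inhibitor of FGF signaling, was at 10.9, 16.8, 19.9 and 25.5 CPM in the selected cells and at 5.76, 13.4, 19.7 and 25.7 CPM in the other cells, and was not called. Both series of Spry4 values were lowest without FGF2.

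Of 11 Wnt target and feedback genes tested, 4 were higher and 3 lower, against 16.7 and 19.8% of all genes tested. The higher were the nuclear effector Lef1 (1.26 ± 0.12), the feedback inhibitors Nkd1 (0.89 ± 0.09) and Nkd2 (2.41 ± 0.20), and Tnfrsf19 (0.84 ± 0.10), and the lower were Rnf43, Znrf3 and Axin2 (-1.80, -0.34 and -0.34). Lef1 was at 226, 313, 282 and 285 CPM against 79.7, 96.5, 135 and 154 CPM. Znrf3 lost the call without any 1 of the 0.75, 3 and 12 ng/ml libraries, and Axin2 without the 0.75 or the 3 ng/ml library. Notum and Sp5 were not called.

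BMP pathway genes were lower or not called. The ligand genes Bmp2, Bmp4 and Bmp7 were the 3 tested of 8 ligand and antagonist genes, and all were lower (-2.45, -2.09 and -0.91). Bmp4 was at 14.0, 13.5, 11.5 and 12.3 CPM against 77.6, 60.0, 47.4 and 48.5 CPM, with no overlap. Of 8 BMP target genes tested, 6 were lower and none higher, with a median log2 fold change of -0.35. Id2 and Msx2 lost the call without the 0.75 or the 3 ng/ml library and without the library block. Id3 lost it without the block and with at least 3 Tbx6 UMIs, and Id1 and Id2 with members restricted to no T UMI. Msx1 showed the largest difference among the BMP target genes, at 80.4, 102, 105 and 79.3 CPM against 139, 243, 225 and 148 CPM (-1.03 ± 0.07 SE, edgeR adjusted p = 4.71e-05), and Id1 was lower by a log2 fold change of -0.30 ± 0.06 (SE, edgeR adjusted p = 0.00698).

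Of 10 retinoic acid genes, 8 were tested, of which Crabp1, Stra6 and Aldh1a2 were higher and Rdh10 (not called without the 0.75 ng/ml library) and Cyp26a1 were lower, the share of lower genes being near the 19.8% of all genes. Among 12 Eph receptor and ephrin genes, all tested, Epha4, Ephb4 and Efna1 were higher and 7 were lower (16.7 and 19.8% of all genes), the largest differences being those of Epha2 (-2.43) and Efnb2 (-2.05). Epha4, which acts at somite borders, was at 45.3, 50.5, 61.4 and 55.8 CPM against 22.5, 26.6, 36.5 and 33.9 CPM (0.81 ± 0.07 SE, edgeR adjusted p = 0.000123).

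The Hox genes differed by paralog group, which follows their order along the chromosome and their order of use along the body axis. In groups 1 to 4, 10 of 12 genes tested were higher and none lower, with a median log2 fold change of 0.87. In groups 5 to 8, 1 of 10 was higher and 1 lower, with a median of 0.08, and in groups 9 and 10, 2 of 7 were higher and 4 lower, with a median of -0.55. No gene of groups 11 to 13 reached the minimum. Over all genes tested the median was 0.01.

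Hoxb1 was at 11.7, 10.8, 19.2 and 18.5 CPM against 1.30, 2.66, 5.96 and 8.24 CPM (1.66 ± 0.24 SE, edgeR adjusted p = 0.00131), and Hoxb4 at 158, 143, 139 and 128 CPM against 44.6, 70.3, 87.4 and 77.8 CPM (0.99 ± 0.16 SE, edgeR adjusted p = 0.00230). At the other end, Hoxc10 was at 7.02, 3.91, 5.12 and 4.89 CPM against 14.6, 13.5, 14.2 and 17.9 CPM (-1.67 ± 0.14 SE, edgeR adjusted p = 0.000111), and Hoxa10 was lower by -1.04 ± 0.14 (SE, edgeR adjusted p = 0.000930). Hoxb9 and Hoxd9, of the same paralog group as the lower Hoxa9, were higher (0.75 and 0.45), the calls of all 3 being lost without the 0.75 ng/ml library. Hoxd10, also lower, lost the call without the 0.75 or the 12 ng/ml library and after thinning.

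Of 18 proliferation genes, all tested, 4 were higher and 3 lower, shares near those of all genes tested (16.7 and 19.8%), with a median log2 fold change of 0.02. The largest difference was that of the cell cycle inhibitor Cdkn1a, at 43.7, 68.0, 66.9 and 76.2 CPM against 119, 114, 124 and 133 CPM (-0.90 ± 0.09 SE, edgeR adjusted p = 0.000288). Ccnd2, a D-type cyclin, was higher at 0.51 ± 0.09 (SE, edgeR adjusted p = 0.00478).

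Glucose metabolism genes went both ways. The glucose transporter genes Slc2a3 and Slc2a1 were lower, with Slc2a3 at 144, 126, 105 and 48.3 CPM against 811, 933, 657 and 559 CPM (-2.93 ± 0.15 SE, edgeR adjusted p = 1.23e-05) and Slc2a1 at 85.8, 51.7, 58.7 and 54.2 CPM against 187, 166, 143 and 144 CPM (-1.39 ± 0.08 SE, edgeR adjusted p = 2.18e-05). Ldha, which converts pyruvate to lactate, was higher at 1410, 1531, 1539.5 and 1574 CPM against 636, 744, 1055 and 1157 CPM (0.78 ± 0.11 SE, edgeR adjusted p = 0.00123). Of 16 genes in the list, 8 were higher and 4 lower (16.7 and 19.8% of all genes), the other two lower ones being the hexokinase gene Hk1 (-0.73), which lost the call without the 0.75 ng/ml library and after thinning, and the lactate dehydrogenase gene Ldhb (-0.48). Hk2, Pfkl, Aldoa, Pgam1 and Pkm were among those higher, by 0.27 to 0.45 on the log2 scale. Tpi1 and Pgk1, also higher, lost the call without the 0.75 or the 3 ng/ml library, and Pgk1 also without the 0 ng/ml library. With members restricted to no T UMI, Hk2, Pfkl, Aldoa and Tpi1 lost the call, and without the library block Aldoa, Pkm, Tpi1 and Pgk1 did.

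Among 6 immediate early and heat shock genes tested, Jun (-1.10), Junb (-1.34) and Atf3 (-1.46, not called without the 0.75 ng/ml library) were lower and Egr1 was higher (0.85 ± 0.15 SE, edgeR adjusted p = 0.00394). The summed level of the 10 genes of this list was 204, 199, 203 and 206 CPM in the selected cells and 363, 269, 209 and 237 CPM in the others. These genes respond to cell handling, and their part in the other results was not tested.

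The second comparison was within Tbx6-positive cells and set the 808 T-low cells against the 745 cells with at least 4 T UMIs, which numbered 33, 93, 247 and 372. Pcdh19, Foxc2, Foxf1, Crabp1 and Aldh1a2 were higher in the T-low cells, the last without a call in DESeq2 or after thinning. Cyp26a1, 6 of 9 streak genes tested and the 5 listed FGF ligand genes tested were lower. Of 9276 genes tested, 364 (3.92%) were called higher and 523 (5.64%) lower, and 17 (0.183%) and 64 (0.69%) of these by at least 2-fold. The 3.92 and 5.64% are the background for the list counts here. The total of 887 calls became 444 without the 3 ng/ml library, 450 without the 12 ng/ml library, 456 after thinning and 240 in DESeq2.

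Pcdh19 was at 46.8, 77.6, 58.6 and 56.5 CPM in the T-low and 31.0, 13.1, 15.4 and 24.8 CPM in the T-positive cells, a log2 fold change of 1.57 ± 0.14 (SE, edgeR adjusted p = 1.25e-08). Foxc2 was at 12.5, 9.32, 8.29 and 6.39 CPM against 6.64, 4.88, 2.59 and 2.14 CPM (1.40 ± 0.20 SE, edgeR adjusted p = 2.73e-05), and Foxf1 at 30.4, 22.3, 21.5 and 10.3 CPM against 10.3, 12.5, 8.11 and 6.76 CPM (1.02 ± 0.15 SE, edgeR adjusted p = 3.44e-05). These 3 genes were higher in the T-low cells at every dose. Foxf1 was highest without FGF2 in the T-low cells, and its interval at 12 ng/ml (8.55 to 12.3 CPM) lay below that without FGF2 (21.6 to 41.6 CPM).

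Genes of the presomitic and Notch lists went both ways. Of 11 presomitic genes tested, 6 were higher and 3 lower, and of 13 Notch pathway genes tested, 5 were higher, 1 was lower and 7 were not called, against 3.92% of all genes higher and 5.64% lower. The Notch list had a median log2 fold change of 0.17 and the presomitic list of 0.28 against 0.01 over all genes. Nrarp (0.50 ± 0.08), Cited1 (0.48 ± 0.05), Dll3 (0.31 ± 0.06) and Dll1 (0.30 ± 0.05) were called higher, and Hes7 by 0.17 ± 0.05 (SE, edgeR adjusted p = 0.0289), a call that was lost on leaving out any 1 of the 0.75, 3 and 12 ng/ml libraries, in DESeq2, after thinning and between 20000 and 50000 UMIs. Hes5, called higher, and Hes1, called lower, lost the call in DESeq2, after thinning and without the 3 or the 12 ng/ml library. Rspo3 was lower (-0.50 ± 0.05 SE, edgeR adjusted p = 2.61e-08), and so was Cyp26a1, at 0.780, 8.12, 8.82 and 13.5 CPM against 28.0, 32.6, 42.7 and 48.1 CPM (-2.03 ± 0.12 SE, edgeR adjusted p = 2.44e-11).

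All 5 listed FGF ligand genes tested were lower in the T-low cells, with a median log2 fold change of -0.66. Fgf8, the main ligand of the streak and tail bud, was at 68.7, 69.8, 86.4 and 88.8 CPM against 81.1, 150.4, 191 and 163 CPM (-0.96 ± 0.07 SE, edgeR adjusted p = 3.44e-10). Fgf4 (-0.93), Fgf15 (-0.66), Fgf17 (-0.56) and Fgf3 (-0.40) followed, the last without a call in DESeq2. Fgf9, which is outside the list and was named by its fold, was higher at 42.1, 35.2, 16.1 and 13.4 CPM against 22.9, 11.6, 6.46 and 7.17 CPM (1.17 ± 0.14 SE, edgeR adjusted p = 9.85e-07).

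Of 9 streak and nascent mesoderm genes tested, 6 were lower and none higher, with a median log2 fold change of -0.93. Mixl1, a homeobox gene of the streak, was at 9.36, 10.2, 19.2 and 27.2 CPM against 9.59, 23.5, 48.4 and 53.8 CPM (-1.08 ± 0.10 SE, edgeR adjusted p = 2.00e-08), and Lhx1 was lower at -0.94 ± 0.13 (SE, edgeR adjusted p = 8.03e-06), without a call after thinning. Mesp1 and Snai1 were not called (-0.10 and 0.17). Of 8 caudal progenitor genes tested, 5 were lower, with Nkx1-2 at -1.70 ± 0.19 and Wnt3a at -1.41 ± 0.15. Epithelial junction genes were lower in 5 of 5 tested (median -1.04), surface and extraembryonic ectoderm genes in 4 of 5 (-0.64) and epiblast genes in 2 of 3. The share over all genes was 5.64%. In DESeq2, Cdh1, Epcam, Cldn6, Cldn7, Esrp1, Krt8, Krt18, Tfap2c and Wnt6 lost the call.

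**Figure D4:**
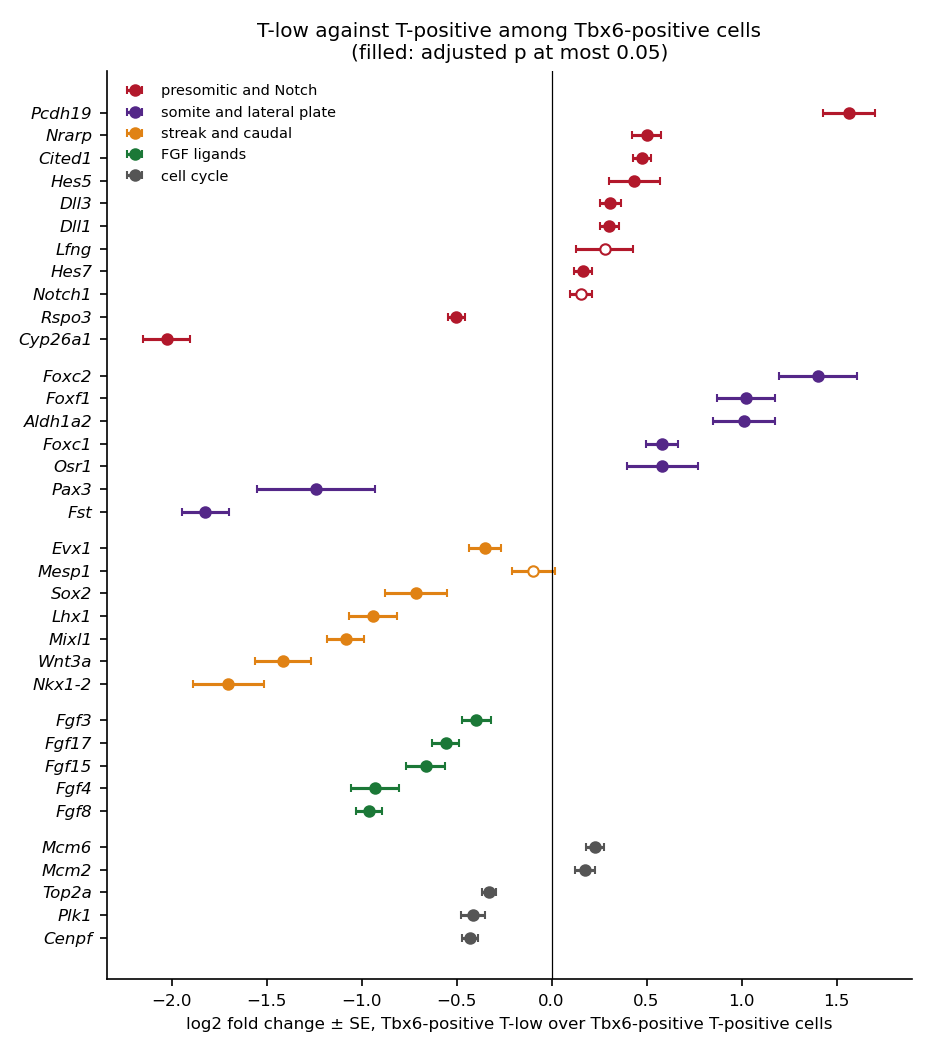
Log2 fold change (± SE, edgeR with library as block) of 35 genes, chosen from the lists after their values were seen, between Tbx6-positive T-low and Tbx6-positive T-positive cells, grouped by role; filled points had an adjusted p of at most 0.05. All 5 listed FGF ligand genes tested lie below 0, and Pcdh19, Foxc2, Foxf1 and Aldh1a2 lie at or above 1.

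Among ERK feedback genes, Dusp4 (-1.07 ± 0.08), Spry4 (-0.48 ± 0.09) and Dusp6 (-0.28 ± 0.08) were lower and 8 of 11 were not called. Spry4 and Dusp6 lost the call without the 3 ng/ml library, in DESeq2 and after thinning, and Dusp6 also without the 12 ng/ml library and between 20000 and 50000 UMIs. In the proliferation list, 10 of 18 genes were lower and 3 higher, against 5.64 and 3.92% of all genes. The lower genes included the mitotic genes Top2a (-0.33), Cenpf (-0.43), Plk1 (-0.41) and Cdk1 (-0.39), and the higher ones were the replication genes Mcm2, Mcm6 and Pcna (0.18, 0.23 and 0.15). All 3 lost the call in DESeq2 and after thinning, Mcm2 and Pcna also without the 3 ng/ml library and between 20000 and 50000 UMIs, Mcm2 and Mcm6 without the 12 ng/ml library and Pcna without the 0.75 ng/ml library. The T-positive cells were also deeper, as given above, and between 20000 and 50000 UMIs in both classes 810 genes were called.

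Hox genes of groups 1 to 4 were again higher in part, 6 of 12, and those of groups 9 and 10 lower in 4 of 7 and higher in 1. In groups 5 to 8, 1 of 10 was higher and 3 were lower. The median log2 fold changes were 0.23 in groups 1 to 4, -0.14 in groups 5 to 8 and -0.33 in groups 9 and 10. The calls of Hoxa2, Hoxb2, Hoxd3 and Hoxd4 in the first groups and of Hoxa9, Hoxa10, Hoxc9 and Hoxc10 in the last were lost in DESeq2. Both comparisons share the T-low cells, and the difference between them was not tested.

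The other genes named by their fold were, among the higher, Crabp1 (1.06), the secreted Smoc1 (1.04), Fut9 (0.96), the trichohyalin gene Tchh (0.94), the zinc finger gene Tshz2 (0.92), Lrig3 (0.88) and the matricellular gene Sparcl1 (0.87). The lower were Igfbp3 (-2.84), Sprr2a3 (-2.31), Defa30 (-1.92), Fst (-1.82), Smim10l2a (-1.39), the endocytosis gene Amph (-1.32), the ligand gene Tgfb2 (-1.27), Tapbp, which loads peptides for antigen presentation (-1.25), and Cdc42ep5 (-1.20). Sprr2a3 and Defa30 belong to families of near-identical genes, so that the gene of origin is uncertain. Igfbp3 was at 3.90, 3.91, 7.76 and 4.89 CPM in the T-low and 8.11, 42.4, 35.7 and 44.4 CPM in the T-positive cells, with no overlap between the classes.

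In the third comparison, the Tbx6-positive T-low cells were set against the 5187 other T-low cells, those with at most 1 Tbx6 UMI (1525, 1988, 916 and 758). T was not matched in this contrast, at 54.6, 56.2, 57.9 and 57.2 CPM in the Tbx6-positive T-low cells and at 8.52, 16.7, 28.3 and 36.4 CPM in the other T-low cells, lower on the latter side in every library. The contrast gave 4327 calls. Of 9527 genes tested, 2030 (21.3%) were higher and 2297 (24.1%) lower, and 187 (1.96%) and 618 (6.49%) of these by at least 2-fold, and the 21.3 and 24.1% are the background for the list counts here. The number of calls was between 3118 and 4380 on leaving out 1 library at a time.

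Dll1 was at 103, 160.3, 152 and 156 CPM against 3.47, 7.41, 15.0 and 24.4 CPM (3.66 ± 0.31 SE, edgeR adjusted p = 3.38e-05), and Pcdh19 at 46.8, 77.6, 58.6 and 56.5 CPM against 1.11, 1.51, 2.09 and 7.39 CPM (4.50 ± 0.41 SE, edgeR adjusted p = 5.43e-05). Of 11 presomitic genes tested, 10 were higher and Cyp26a1 was lower (not called without the 3 ng/ml library), with a median log2 fold change of 2.03 against 0.00 over all genes. Besides, 8 of 9 streak and nascent mesoderm genes were higher, among them Mesp1 (2.24 ± 0.26), Mixl1 (1.88 ± 0.21) and Snai1 (2.68 ± 0.18), and 4 of 5 FGF ligand genes, among them Fgf3 (2.89 ± 0.36) and Fgf4 (2.32 ± 0.30). Of the streak genes, Fgf8, Evx1 and Sp5 lost the call without the 0.75 ng/ml library, and Evx1 also without the 3 ng/ml library. Epithelial junction genes were lower in 8 of 8 and ectoderm genes in 10 of 10 tested, with medians of -4.31 and -4.20.

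The streak genes Fgf8 and Mixl1 were called lower than in the T-positive and higher than in the other T-low cells. Fgf8 was at 12.7, 32.3, 65.6 and 68.4 CPM in T-low cells with at most 1 Tbx6 UMI, 68.7, 69.8, 86.4 and 88.8 CPM in the Tbx6-positive T-low cells and 81.1, 150.4, 191 and 163 CPM in the Tbx6-positive T-positive cells. For Mixl1 the levels were 0.991, 1.97, 5.70 and 9.42 CPM, 9.36, 10.2, 19.2 and 27.2 CPM and 9.59, 23.5, 48.4 and 53.8 CPM. The call of Fgf8 against the other T-low cells was lost in DESeq2 and without the 0.75 ng/ml library. Without FGF2, the Poisson intervals of the 2 Tbx6-positive classes overlapped for both genes.

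Further genes named by their fold in this comparison were, among the higher, Frzb (3.94), Dll3 (3.22), Rnf213 (3.12), Lor (3.06), the ubiquitin ligase gene Peli3 (2.92), Pdgfra (2.92) and Lmo2 (2.80). Among the lower were Anxa1 (-6.14), Cryab (-5.54), Tagln (-5.34), Cldn7 (-4.93), Mt2 (-4.81), Crb3 (-4.81), Krt19 (-4.81), Sfn (-4.71), Arhgap8 (-4.50) and the matrix gene Thbs1 (-4.48). Endothelial Flt1 was lower as well (-3.34).

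Across FGF2 doses, Stmn2, Sparc, Pck2 and Fn1 were among the genes with higher levels in the Tbx6-positive T-low cells at 12 than at 0 ng/ml, and Slc2a3, Col18a1, Krt8 and Hoxc9 among those with lower levels. Of 3069 genes that reached 50 CPM at one dose or the other, 22 differed by at least 2-fold in the Tbx6-positive T-low cells, 12 higher and 10 lower at 12 ng/ml, and 95% intervals of all 22 ratios excluded 1. In all other kept cells, 120 of 3131 genes did so (37 higher and 83 lower), and in T-low cells with at most 1 Tbx6 UMI 58 of 3097 (13 higher and 45 lower). Between neighboring doses, 4, 1 and 1 genes differed by this rule in the Tbx6-positive T-low cells. The 22 genes between 0 and 12 ng/ml became 79 with a minimum of 20 CPM (47 higher and 32 lower) and 38 after thinning (19 and 19). With 1 library per dose, these are differences between libraries and were not tested, and the sums of 40 cells give wider intervals than those of the larger groups.

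Stmn2, a regulator of microtubules, was at 7.80, 17.4, 43.8 and 55.6 CPM, a ratio of 12 to 0 ng/ml of 7.13 (95% interval 3.85 to 14.9), with 10 UMIs in the 40 cells without FGF2. The matricellular gene Sparc was at 17.2, 32.8, 46.7 and 74.6 CPM, a ratio of 4.35 (95% interval 2.85 to 6.97), and the fibronectin gene Fn1 at 154, 231, 343 and 469 CPM, a ratio of 3.03 (95% interval 2.63 to 3.51). Each of the 3 had a higher value at each higher dose.

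In all other kept cells, Sparc was at 345, 173, 134 and 175 CPM and Stmn2 at 177, 136, 132 and 153 CPM, both lower at 12 than at 0 ng/ml. Among them, the Tbx6-positive T-positive cells had larger shares of cells with a UMI of either gene at 12 than at 0 ng/ml after thinning. Pck2, which makes phosphoenolpyruvate in mitochondria, was at 14.0, 30.1, 50.8 and 55.1 CPM in the Tbx6-positive T-low cells, a ratio of 3.92 (95% interval 2.46 to 6.66), and Lgals1, a galectin gene, at 60.9, 70.1, 111 and 173 CPM, a ratio of 2.85 (95% interval 2.27 to 3.62). The serine and asparagine metabolism genes Mthfd2 and Asns were also among the 12, with ratios of 2.32 and 2.02. In the other cells, Pck2, Mthfd2 and Asns had ratios of 2.26, 1.92 and 1.66.

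**Figure D5:**
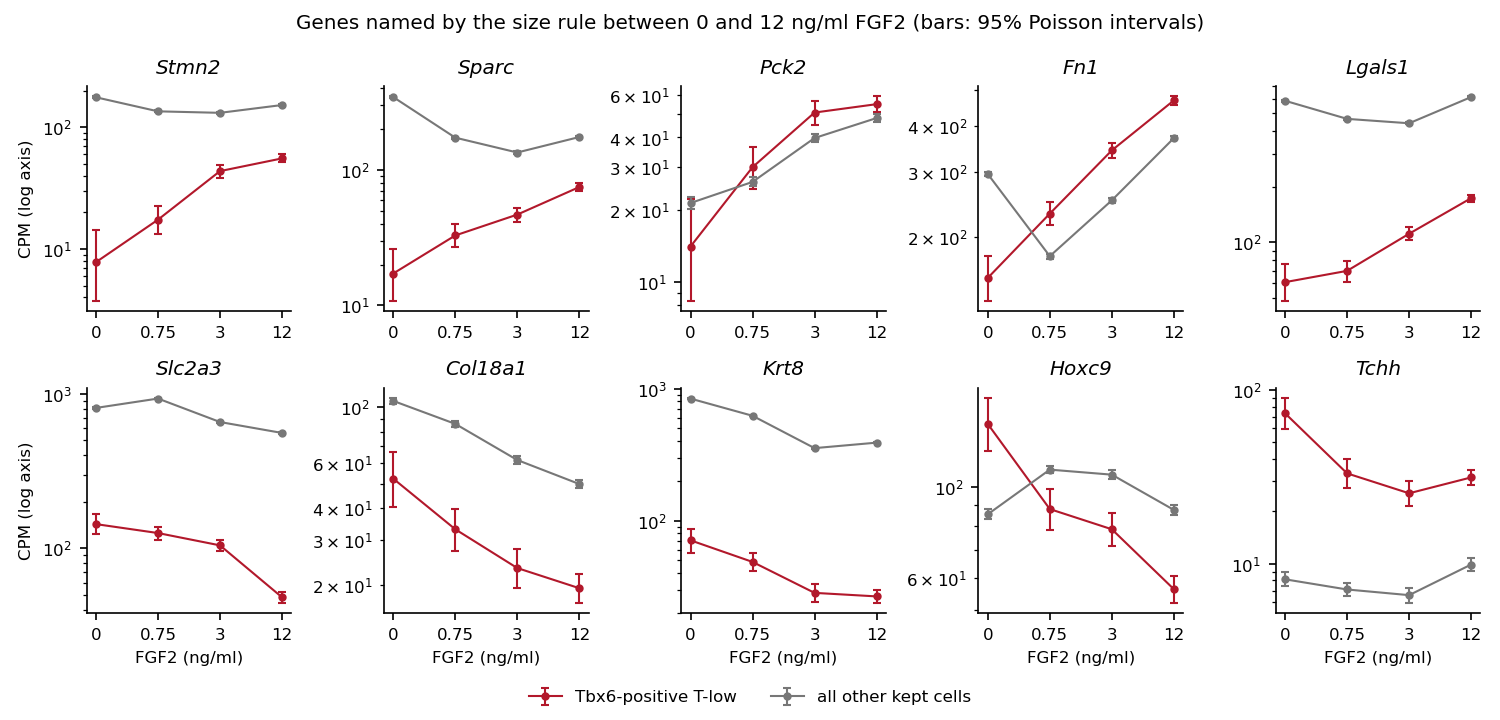
Levels of the 10 genes named by the size rule between 0 and 12 ng/ml FGF2 in Tbx6-positive T-low cells (red) and all other kept cells (grey), in CPM on a log axis with exact 95% Poisson intervals. Stmn2 and Sparc were higher at 12 than at 0 ng/ml in the Tbx6-positive T-low cells and lower in the other cells, and Hoxc9 was lower at each higher dose in the Tbx6-positive T-low cells.

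Among the 10 genes with lower levels at 12 ng/ml, Hoxc9 was at 142, 88.1, 78.7 and 56.2 CPM, a ratio of 0.396 (95% interval 0.336 to 0.469), against 1.02 (95% interval 0.985 to 1.07) in the other cells. Tchh was at 73.3, 33.1, 25.4 and 31.3 CPM, a ratio of 0.427 (95% interval 0.340 to 0.542). Hoxa7 also met the rule, with a ratio of 0.452. Its ratio in the other cells was 1.11, and the growth factor gene Igf2 had ratios of 0.458 and 0.258.

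For Slc2a3, Col18a1 and Krt8, 2 cells held much of the UMIs without FGF2. Slc2a3 was at 144, 126, 105 and 48.3 CPM, a ratio of 0.336 (95% interval 0.284 to 0.399), and 2 of the 40 cells held 118 of its 184 UMIs without FGF2. For Krt8, at 71.0, 48.7, 28.4 and 26.7 CPM, 2 cells held 60 of 91 UMIs, and for Col18a1, at 52.3, 33.1, 23.3 and 19.4 CPM, 28 of 67. Without the cells that had at least 5 Epcam UMIs, the ratios were 0.698 for Slc2a3, 0.529 for Col18a1 and 0.232 for Krt8, the rule was met by 11 genes higher and 4 lower, and the ratio was 0.394 for Hoxc9, 0.400 for Tchh and 3.93 for Sparc. The genes that then no longer met the rule also included Stmn2, Exoc6b, Asns and Grsf1 of the higher, whose ratios changed little (7.16, 1.98, 1.96 and 1.88), and Hoxa7 (ratio 0.537), Epcam (1.62), Krt18 (0.501) and Cgnl1 (0.504) of the lower. Krt8 and Stmn2 still differed by at least 2-fold and fell below the minimum of 50 CPM. The Krt8 ratio with all cells was 0.376, closer to 1 than without the Epcam cells.

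Shares of cells with a UMI follow the level of a gene and do not show by themselves whether cells differ. Thinned to 10000 UMIs per cell, Cited1 had a UMI in 93.2% of the 808 cells, Dll1 in 71.4%, Hes7 in 71.0%, Dll3 in 60.4%, Pcdh19 in 30.8%, Foxc1 in 30.1%, Hand1 in 22.4% and Foxf1 in 10.3%. Without thinning, these shares were 97.9, 89.1, 87.3, 86.8, 45.8, 55.8, 33.7 and 19.7%. In the Tbx6-positive T-positive cells, the thinned shares were 83.0, 58.9, 65.2, 53.3, 11.5, 20.4, 24.4 and 7.52% in the same order of genes.

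The background from free RNA was not measured, and T-low cells with at most 1 Tbx6 UMI, which may express these genes, are given for comparison. These cells (median 27172 UMIs, against 26067.5 in the selected cells) had a UMI of Pcdh19 in 0.796, 1.17, 1.98 and 6.51% and of Dll1 in 2.85, 5.69, 9.47 and 16.7% after thinning at 0, 0.75, 3 and 12 ng/ml. In the selected cells the shares were 35, 33.1, 28.5 and 30.9% for Pcdh19 and 60, 75.4, 73.5 and 70.4% for Dll1. Msgn1 had a UMI in 4.70% of the selected cells, in 0.331% of these other cells and in 5.37% of the Tbx6-positive T-positive cells. Its mean level over the libraries was 3.09 CPM in the selected and 5.69 CPM in the Tbx6-positive T-positive cells. Hand1 had a UMI in 42.5, 22.0, 25 and 19.6% of the selected cells at 0, 0.75, 3 and 12 ng/ml and in 34.9, 16.9, 11.1 and 14.5% of the other T-low cells. Without thinning, the Hand1 shares were 45, 33.1, 39.5 and 30.2% and 52.6, 26.5, 18.9 and 22.0%, so that the order without FGF2 depended on thinning, and the Hand1 level there was lower in the selected cells (51.5 against 90.4 CPM).

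Genes found in the same selected cells were counted after thinning and set against the number expected if they were independent within each library. Hand1 and Foxf1 were found together in 44 cells, with 20.2 expected, Hand1 and Osr1 in 20 with 10.9 expected, and Foxf1 and Osr1 in 13 with 5.06 expected. For Hand1 and Foxf1 the number found was above that expected in each of the 4 libraries. Hand1 and Pcdh19 were together in 40 cells, with 56.0 expected, and fewer than expected in each library. For Foxf1 and Pcdh19 the number was 27, with 25.6 expected.

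Pcdh19 and Foxc1 were found together in 96 cells, with 75.1 expected. Dll1 and Dll3 were found together in 356 cells with 349 expected, a ratio of 1.02. Krt18 and Epcam were together in 26 cells, with 9.67 expected, and Epcam and Pcdh19 in 22, with 35.3 expected. These counts describe the cells and were not tested.

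Within the selected cells, levels pooled over the libraries also differed with the number of Tbx6 and T UMIs. From cells with 2 Tbx6 UMIs (262 cells) to cells with at least 5 (218 cells), Pcdh19 went from 47.9 to 73.7 CPM, Hes7 from 150.2 to 193 CPM and Hand1 from 55.4 to 31.9 CPM. From cells with no T UMI (143 cells) to cells with 3 (194 cells), Pcdh19 went from 70.6 to 47.7 CPM. Depth moved with both, as the median number of UMIs went from 25641 to 28392 and from 24802 to 28472, and so did the library, as 89 of 143 cells with no T UMI and 108 of 194 with 3, and 131 of 262 cells with 2 Tbx6 UMIs and 124 of 218 with at least 5, came from 12 ng/ml. The part of depth and library in these differences was not tested.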

How the data were processed

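The 5 scRNAseq libraries were made by the authors with 10x Genomics 3′ chemistry, and the deposited matrices hold raw UMI counts per gene and barcode with no normalization. The genome build was mm10, with gene models supplied by 10x Genomics. The matrix headers name Cell Ranger 5.0.1, whereas the study's methods name another version. The gate, the compared classes and the 29 gene lists were chosen with earlier results of these data known, so that lists describe and do not support. Kept cells had at least 2500 genes and at most 10% mitochondrial UMIs.

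UMIs were summed per class and library and tested with edgeR 4.0.16 (R 4.3.3; TMM, quasi-likelihood, library as block, mean of at least 5 CPM, T and Tbx6 left out), with DESeq2 1.42.0 as an alternative. Named genes were list members and, per comparison, the 10 called genes with the largest fold in each direction with at least 20 CPM on the higher side and 4 libraries in agreement, without mitochondrial, predicted and Rik genes. Dose genes were the 5 largest ratios each way among genes passing 50 CPM and 2-fold. Intervals were exact (Poisson, conditional and Clopper-Pearson, 95%). For symbols with 2 identifiers, the more abundant was used. In simulated data for the first comparison (9498 genes), 94% of 2-fold and 53.7% of 1.5-fold changes were recovered, and 0.118% of unchanged genes were called. The simulation gave few genes a change, each with the same fold in every library, and all genes the same fixed spread. In the data, many genes were called and folds varied with dose, so that these rates need not hold there. NumPy 2.4.6, SciPy 1.17.1, pandas 2.3.3 and Matplotlib 3.10.9 ran under Python 3.11.15. Positions are from GENCODE vM21 (GRCm38) and promoters from RefSeq.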

Additional observations from a re-analysis of the deposited data

Results flagged for a closer look

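Stmn2, Sparc and Tchh, all named between 0 and 12 ng/ml FGF2, differed in one direction in the Tbx6-positive T-low cells and the opposite way in all other kept cells, with counting intervals that excluded 1 on both sides. The ratio of 12 to 0 ng/ml was 7.13 for Stmn2 in the Tbx6-positive T-low cells and 0.864 in the other cells. For Sparc it was 4.35 and 0.507, and for Tchh 0.427 and 1.22. After thinning, the share of Tbx6-positive T-positive cells with a Stmn2 UMI was 6.06% at 0 (33 cells) and 36.6% at 12 ng/ml. For Sparc it was 27.3 and 47.3%, with overlapping intervals. In the Tbx6-positive T-low cells these shares were 2.5 and 26.4% for Stmn2 and 12.5 and 34.9% for Sparc. In T-low cells with at most 1 Tbx6 UMI they were 39.8 and 38.9% and 65.3 and 56.8%. The opposite direction thus did not extend to the Tbx6-positive T-positive cells. The difference between the cell groups was not tested, as each dose had 1 library. The make-up of the other cells also changed with dose, and without FGF2 the Stmn2 level in the Tbx6-positive T-low cells rested on 10 UMIs in 6 cells.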

How the results depend on the processing

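No edgeR call of a named gene in the 3 comparisons between cell classes reversed its direction under any alternative run, whereas the dose ratio of Epcam, not tested, went from 0.463 to 1.62 without the cells with at least 5 Epcam UMIs. Among genes named or listed, 36 of 172 calls against all other kept cells were lost without the 0.75 ng/ml library. Losses were 22 of 172 without the 3 ng/ml library and 12 of 172 after thinning. Without the library block 36 of 174 were lost, and with T at 0 UMIs 35 of 170. Against the T-positive cells, 60 of 127 were lost in DESeq2 and 37 of 124 after thinning. Against all other kept cells, 3465 calls became 2190 with a minimum of 20 CPM, which tests fewer genes, 1370 with T at 0 UMIs, which leaves 143 cells, and 2021 to 3640 on leaving out 1 library. Against the T-positive cells, 887 became 240 in DESeq2, 456 after thinning to 10000 UMIs and 444 to 1222 on leaving out 1 library. Against the other T-low cells, calls were 3118 to 4380 on leaving out 1 library. The 22 dose genes became 79 with a minimum of 20 CPM and 38 after thinning. The share of kept cells in the gate was 9.03%, 10.5% when both thinning and other thresholds (at least 1 Tbx6 and at most 1 T UMI) were used and 7.93% with at most 5% mitochondrial UMIs. Where no smaller number of genes, cells or libraries is named, the cause was not tested. Without TMM, the share of higher among called genes in the first comparison was 47.0% instead of 45.7%. Leaving out members with at least 5 Epcam UMIs was added after seeing the data. The 40 cells without FGF2 held 1281525 UMIs, which limits ratios between doses to genes of higher level. The classes compared within a library were paired by the library block of the model, and without the block the first comparison gave 3081 calls.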
